A study of Mus musculus with 12 samples.

Results

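A list of 30 genes of Schwann cells and of myelin was followed through mouse dorsal root ganglia in which ribosomes of sensory neurons could be pulled down. The list was given by gene name and covers compact myelin, the non-compact membrane and its junctions, myelin lipid synthesis, the periaxin complex, transcription factors, and signals and receptors of the Schwann cell lineage. This list and the lists of other genes used below were chosen with earlier results of these data known. Of the 30 genes, 27 had a gene sum and all 27 passed the filter on low counts, out of 11579 genes tested in all. For Ugt8a, the galactosyltransferase gene of myelin galactolipids, Art3, an ecto-ADP-ribosyltransferase gene, and Erbb3, the neuregulin receptor gene, no site could be kept, so they were not analysed here.

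Adv-Cre//RiboTag mice received a crush of the sciatic nerve on a single side, and L4-L6 ganglia of the injured and of the naive side were collected after 3 days. In these mice a Cre recombinase under the advillin promoter, active in sensory neurons, switches the ribosomal protein gene Rpl22 to a form with an HA tag. The design thus places the tag in neurons and not in the Schwann cells whose genes are described, and all 4 groups carry it. The groups were RNA precipitated with the tag (IP) and RNA of the homogenate before precipitation (input), each from naive and from injured ganglia, with 3 libraries a group and ganglia of 4 mice pooled in each library.

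Myelinating Schwann cells each wrap a segment of an axon and stack their membrane into compact myelin, held together by basic and membrane-spanning proteins, while cytoplasm stays in the non-compact loops beside the node, where adhesion, gap junction and tight junction proteins sit. The transcription factors SOX10 and EGR2 drive the genes of this programme. In a dorsal root ganglion Schwann cells ensheath the axons of the sensory neurons, and satellite glia surround their cell bodies. After a crush, Schwann cells of the nerve beyond the injury lose myelin gene expression and take on a repair state, whereas the ganglion lies on the side of the cell body.

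The libraries read the 3′ ends of polyadenylated RNA and held between 10045178 and 18687123 counts each, of which 65.1% to 79.1% entered a gene sum. Replicates of a group had correlations of log2 levels between 0.868 and 0.953 over the tested genes. Levels are given in CPM, the counts of a gene per 1000000 counts in tested genes. Library sizes were adjusted by edgeR's trimmed mean of M values (TMM). Shares of the input level kept or left in IP are ratios of CPM and not amounts of RNA recovered. The 27 genes together took 0.675% ± 0.069 of all counts in input naive, 0.634% ± 0.062 in input injured, 0.333% ± 0.036 in IP naive and 0.315% ± 0.031 in IP injured (SD, n = 3 each). S100b, the gene with the most counts, carried much of the IP sums: without it the mean was 0.173% ± 0.028 in IP naive and 0.18% ± 0.023 in IP injured, so that IP injured was no longer below IP naive. In a bulk sample, fewer cells of a type and less RNA per cell cannot be told apart.

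Promoters of 4 of the genes are printed from the RefSeq table of GRCm38.p6, each with 250 bases before and 50 after the start, 5′ to 3′ on the strand of the gene. They were chosen after the values were seen: Mag and Gjb1 had the lowest share of their input level in IP from naive ganglia, Cnp an intermediate share, and S100b a level that overlapped between both fractions. They are Mag at chr7:30914814-30915113 (minus strand, 1 of its 3 listed promoters), Gjb1 at chrX:101383482-101383781 (plus strand, 1 of 4), Cnp at chr11:100574689-100574988 (plus strand) and S100b at chr10:76253586-76253885 (plus strand). Capitals mark the letters ACAAAG or ACAATG, the core that SOX factors read, on either strand.
Mag: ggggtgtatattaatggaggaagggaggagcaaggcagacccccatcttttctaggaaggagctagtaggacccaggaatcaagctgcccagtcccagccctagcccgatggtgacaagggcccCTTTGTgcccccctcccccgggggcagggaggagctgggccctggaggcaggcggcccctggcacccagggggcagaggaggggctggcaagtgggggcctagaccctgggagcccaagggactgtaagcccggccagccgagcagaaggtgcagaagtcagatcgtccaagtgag
Gjb1: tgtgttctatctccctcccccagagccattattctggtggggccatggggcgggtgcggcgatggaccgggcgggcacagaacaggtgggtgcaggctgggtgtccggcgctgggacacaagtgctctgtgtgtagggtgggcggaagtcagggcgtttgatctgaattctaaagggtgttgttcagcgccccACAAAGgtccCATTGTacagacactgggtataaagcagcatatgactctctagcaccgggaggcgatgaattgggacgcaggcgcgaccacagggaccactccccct
Cnp: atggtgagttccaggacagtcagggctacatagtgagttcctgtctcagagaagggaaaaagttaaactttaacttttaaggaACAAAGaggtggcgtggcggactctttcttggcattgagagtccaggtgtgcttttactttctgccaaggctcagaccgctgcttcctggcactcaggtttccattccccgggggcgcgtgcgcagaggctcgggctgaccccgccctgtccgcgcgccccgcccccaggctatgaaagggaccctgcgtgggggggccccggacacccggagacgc
S100b: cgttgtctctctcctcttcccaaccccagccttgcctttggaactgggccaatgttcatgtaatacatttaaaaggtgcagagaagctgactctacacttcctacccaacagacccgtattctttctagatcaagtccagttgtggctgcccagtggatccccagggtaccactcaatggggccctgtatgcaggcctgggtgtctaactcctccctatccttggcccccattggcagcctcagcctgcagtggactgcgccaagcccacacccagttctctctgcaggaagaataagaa

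Mag held 1 match at position -126 from the start, Gjb1 held 2 at -57 and -47, Cnp held 1 at -167 and S100b held none in this window. Over all listed promoters 28.6% had such a match, and 31.7% of genes had a match in at least 1 promoter. Of the 20 genes of the list with a promoter in the table, 5 had a match (Art3, Cadm4, Cnp, Gjb1 and Mag). A zinc finger core of EGR factors, GCGTGGGCG or GCGGGGGCG on either strand, was in 3.93% of all genes and in 2 of the 20, Plekha4 and Scn7a. The 4 printed promoters do not stand for the list. Cadm4 had a SOX match and was not called lower in IP (log2 -0.27 in naive ganglia). Pmp22, Prx, Pllp, Mal and Ncmap had none and were lower in both conditions. A match is a description of letters only, and any link of matches to levels was not tested.

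In naive ganglia 20 of the 27 genes were lower in IP than in input and none was higher (edgeR quasi-likelihood test, adjusted p under 0.05 by Benjamini-Hochberg over 11579 genes, 2-sided), against 4.96% of all tested genes that were lower and 1.75% that were higher. The median log2 change of the 27 was -2.63, and that of all tested genes was -0.03. The 20 genes kept between 2.76% and 43.2% of their mean input level in IP, with a median of 13.9%. In 23 of the 27 genes all 3 IP libraries lay below all 3 input libraries, which held for 14.0% of all tested genes. In injured ganglia 19 genes were lower and none higher, against 4.06% and 1.63% of all genes, with a median log2 of -2.36 for the 27 and -0.01 for all. These 19 were all among the 20 of naive ganglia, and Sema3b was the exception. In 22 genes the injured groups did not overlap with IP below, as in 14.7% of all genes.

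**Figure D1:**
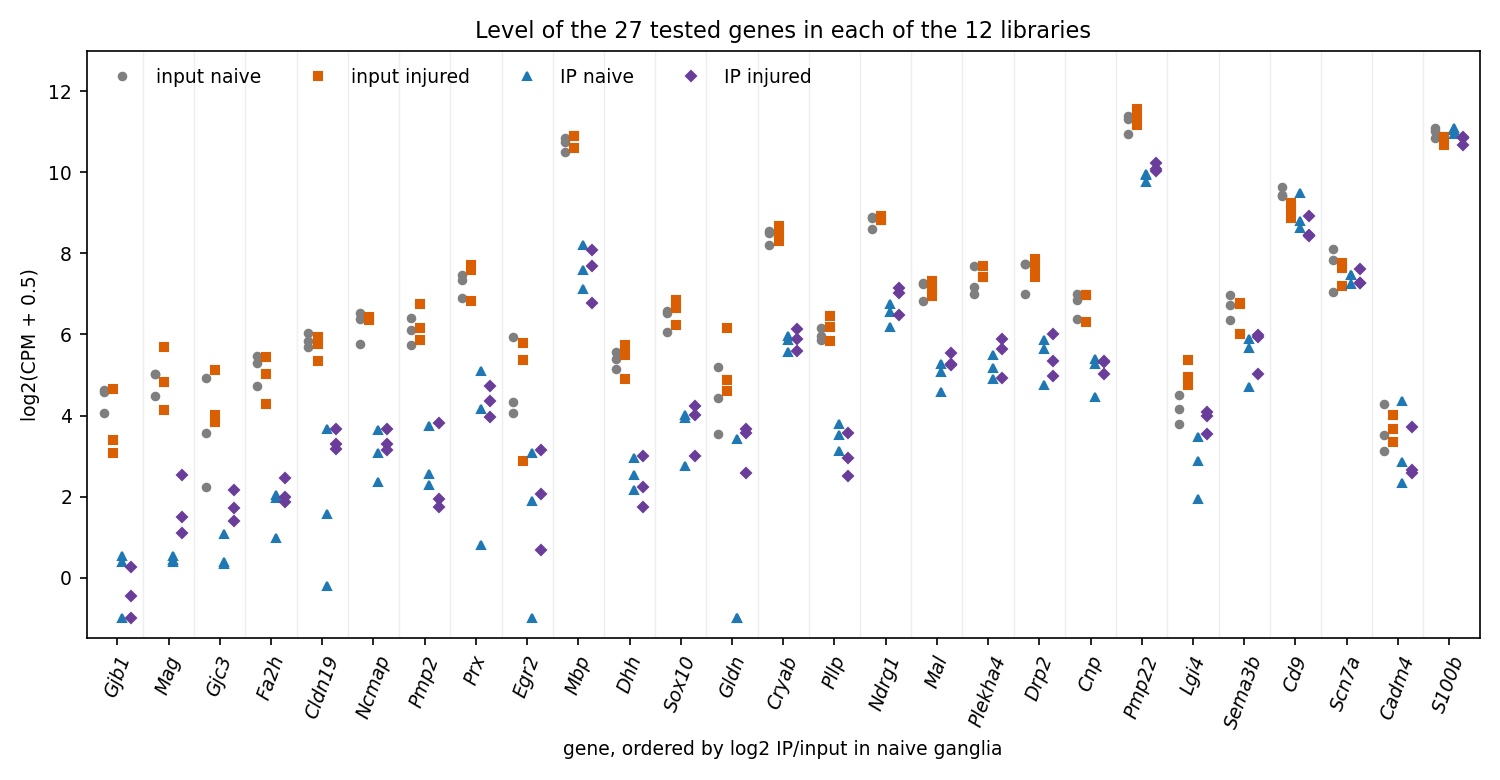
Level of each tested gene as log2(CPM + 0.5) in the 12 libraries, with 1 point per library and the 4 groups side by side within each gene. The genes run from the lowest to the highest log2 IP/input in naive ganglia, from Gjb1 at -5.16 to S100b at 0.04, and points at the bottom of the scale are libraries with 0 counts.

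All 5 genes of compact myelin were lower in IP in both conditions, with a median log2 of -2.55 in naive and -3.18 in injured ganglia. Mbp encodes myelin basic protein, which binds the cytoplasmic faces of the membrane together. Its level was 1850, 1454 and 1712 CPM in input naive and 139, 294 and 194 CPM in IP naive. Injured ganglia gave 1890, 1557 and 1920 CPM in input and 109, 272 and 205 CPM in IP. Every IP library stood below every input library, and the lowest IP value of each condition was that of its first replicate. The log2 change was -3.00 ± 0.27 (SE, 8.0-fold, adjusted p = 8.93e-07, edgeR) in naive and -3.19 ± 0.27 (9.16-fold, adjusted p = 5.93e-07, edgeR) in injured ganglia.

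Pmp22, whose altered gene dosage causes demyelinating neuropathy in humans, was the compact myelin gene with the smallest difference. It stood at 2677, 1962 and 2542 CPM in input naive and at 861, 1002 and 971 CPM in IP naive. The groups did not overlap, yet 39.5% of the input level remained in IP, compared with 12.5% for Mbp. The log2 change was -1.34 ± 0.13 (adjusted p = 1.86e-06, edgeR) in naive and -1.26 ± 0.13 (adjusted p = 3.39e-06, edgeR) in injured ganglia. Its 95% interval in naive ganglia, -1.61 to -1.07, did not meet that of Mbp, -3.56 to -2.44.

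Pmp2, a lipid-binding protein of the myelin cytoplasmic face, kept 11.0% of its input level in naive IP and 8.35% in injured IP. Its 95% interval in injured ganglia was wide, from a log2 of -4.64 to -2.47, and the log2 was -4.65 without the third IP injured library, in which its level was 13.5 CPM against 3.35 and 2.86 CPM in the others. In naive ganglia its log2 of -3.17 was -3.79 without the third IP library. Mal, a proteolipid of lipid rafts, kept 22.7% and 28.9% of its input level. Pllp, plasmolipin, a membrane protein related to Mal, kept 17.1% and 11.1%, and its injured call was lost when sites at the annotated 3′ end alone were counted (log2 -3.16, adjusted p = 0.0796, edgeR).

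Among the 8 genes of the non-compact membrane, its junctions and the node, 6 were lower in IP in each condition. Mag encodes the adhesion protein that faces the axon on the inner wrap. Its level was 31.8, 21.9 and 32.2 CPM in input naive and 0.85, 0.81 and 0.94 CPM in IP naive, which rested on 11, 8 and 13 counts. In injured ganglia it was 27.8, 17.2 and 51.2 CPM in input and 1.64, 2.33 and 5.32 CPM in IP. The IP libraries were far below input in both conditions, and all 3 injured IP values lay above all 3 naive ones. The log2 IP/input was -5.02 ± 0.58 (32.5-fold, adjusted p = 1.38e-05, edgeR) in naive and -3.36 ± 0.52 (10.3-fold, adjusted p = 0.000361, edgeR) in injured ganglia, the latter -4.00 without the third IP library.

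Gjb1, the gene of the gap junction protein connexin 32, whose mutation causes an X-linked neuropathy in humans, had the lowest share in IP. It had 0, 8 and 13 counts in the naive IP libraries and 3, 0 and 10 in the injured ones, against 165 to 216 and 73 to 224 counts in input. The log2 change was -5.16 ± 0.99 (adjusted p = 0.00228, edgeR) and -5.37 ± 1.01 (adjusted p = 0.00236, edgeR). Its value moved with single libraries, to -4.56 without the first IP naive library and, in injured ganglia, to -6.64 without the third IP library and -4.70 without the third input library. Gjc3, another connexin gene of glia, had a log2 of -3.80 ± 0.73 in naive and -2.83 ± 0.69 in injured ganglia. Its injured call (adjusted p = 0.016, edgeR) was lost without the first or second IP library or without the first input library, where the adjusted p ran from 0.0695 to 0.113, and its naive log2 was -2.84 without the first input library.

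Cldn19, a tight junction gene of Schwann cells, was at 56.3, 51.2 and 64.6 CPM in input naive and at 2.47, 12.2 and 0.363 CPM in IP naive. The IP values spread over a wide range but stayed below input, with a log2 of -3.55 ± 0.66 (adjusted p = 0.00172, edgeR) and of -5.32 without the second IP library. In injured ganglia the log2 was -2.36 ± 0.62 (adjusted p = 0.0266, edgeR). That call was lost without any 1 of the IP injured libraries or without the first or the third input injured library, where the adjusted p ran from 0.0567 to 0.127, by DESeq2 (adjusted p = 0.0563) and with 3′ end sites alone (adjusted p = 0.305). Ncmap, a membrane protein of non-compact myelin, kept 10.8% and 12% of its input level in IP, with a log2 of -3.21 ± 0.33 (adjusted p = 4.28e-06, edgeR) and -3.06 ± 0.33 (adjusted p = 6.77e-06, edgeR). A site in an Alu repeat 355 bp upstream of its 3′ end, left out of the sum, held 9627 counts against 4869 kept, and its level in IP was 12.1% and 11.0% of input. Cnp, a phosphodiesterase of the cytoplasmic channels of myelin, kept 31.0% and 34.2%, with -1.68 ± 0.26 (adjusted p = 0.00035, edgeR) and -1.55 ± 0.26 (adjusted p = 0.000896, edgeR).

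The genes of this group that did not pass were Gldn and Cadm4. Gldn encodes gliomedin, which gathers sodium channels at the node. It was at 0, 10.2 and 0 CPM in IP naive and at 21.2, 35.9 and 11.2 CPM in input naive, so the groups were apart only narrowly. Its log2 was -2.79 ± 1.05 (adjusted p = 0.13, edgeR), and it passed without the second IP naive library, when both remaining IP libraries were at 0 (adjusted p = 1.5e-05, edgeR). In injured ganglia its log2 of -2.09 ± 1.00 (adjusted p = 0.28, edgeR) passed without that same library (adjusted p = 0.0187). Cadm4, the Schwann cell partner of axonal adhesion molecules, was at 20.2, 4.55 and 6.75 CPM in IP naive and at 8.28, 11.0 and 18.8 CPM in input naive, which overlapped. A site 162 bp upstream of its 3′ end, labelled in part low-complexity and in part no repeat, held 1771 counts against 1359 kept. It was left out of the sum. The level of that site in IP was 74.7% of input in naive and 68.7% in injured ganglia.

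Fa2h, the fatty acid hydroxylase of myelin galactolipids, was at 43.5, 25.8 and 38.9 CPM in input naive and at 1.47, 3.64 and 3.41 CPM in IP naive. The groups were well apart, with a log2 of -3.67 ± 0.47 (adjusted p = 4.44e-05, edgeR) and, in injured ganglia, of -3.00 ± 0.45 (adjusted p = 0.00028, edgeR). Prx and Drp2 encode periaxin and the dystrophin-related protein that it binds at the outer Schwann cell membrane, and both were lower in IP. Prx was at 177, 119 and 163 CPM in input naive and at 1.24, 34.1 and 17.4 CPM in IP naive, with the first IP library far below the others. Its log2 was -3.14 ± 0.58 in naive and -3.08 ± 0.58 in injured ganglia (adjusted p = 0.00179 and 0.00233, edgeR), and -4.00 in naive ganglia without the second IP library. Drp2 kept 24.2% and 22.4% of its input level in IP.

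Of the transcription factor genes, Sox10 passed the test and Egr2 did not. Sox10, a factor of the whole Schwann cell lineage, also marks satellite glia. It was at 95.7, 65.9 and 92.6 CPM in input naive and at 14.8, 6.26 and 15.5 CPM in IP naive, which did not overlap. The log2 was -2.79 ± 0.36 in naive and -2.81 ± 0.36 in injured ganglia (adjusted p = 4.19e-05 and 4.1e-05, edgeR). Egr2, which turns on the myelin genes, was at 60.6, 16.1 and 19.7 CPM in input naive and at 0, 3.23 and 7.99 CPM in IP naive. The naive groups did not overlap, but the spread was large and the log2 of -3.09 ± 0.97 had an adjusted p of 0.0627 (edgeR). In injured ganglia the input values of Egr2 were 55.1, 40.8 and 6.89 CPM and the IP values 1.09, 8.37 and 3.69 CPM, which overlapped (log2 -2.98 ± 0.97, adjusted p = 0.0788, edgeR). It passed in naive ganglia without the third IP naive or the third input injured library, and in injured ganglia without the first IP naive or the third input injured library, with adjusted p from 0.0173 to 0.0399. Over all libraries left out in turn, the naive log2 of Egr2 ran from -4.34 without the third IP naive library to -2.22 without the first input naive library, and the injured log2 from -3.83 without the second IP injured library to -2.45 without the first input injured library.

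Dhh, the hedgehog ligand by which Schwann cells organise the perineurium, was at 41.4, 34.8 and 47.2 CPM in input naive and at 3.94, 7.28 and 5.30 CPM in IP naive. It was lower in IP, with a log2 of -2.90 ± 0.41 (adjusted p = 0.000131, edgeR) and, in injured ganglia, of -3.13 ± 0.42 (adjusted p = 6.98e-05, edgeR). With all tied sites counted, repeats included, these values were -1.91 and -2.33. Sema3b, a secreted semaphorin, passed in naive ganglia (log2 -1.21 ± 0.31, adjusted p = 0.0216, edgeR) and not in injured ones (-0.85 ± 0.31, adjusted p = 0.126, edgeR), and the difference between both conditions did not pass (interaction log2 0.36 ± 0.43, unadjusted p = 0.418, edgeR). The naive call of Sema3b was lost without the second or the third IP naive library and without the first or the third input naive library, where the adjusted p ran from 0.0521 to 0.101. Lgi4, a secreted signal for Schwann cell maturation, was at 17.4, 13.3 and 22.2 CPM in input naive and 6.87, 3.33 and 10.5 CPM in IP naive, a log2 of -1.34 ± 0.43 (adjusted p = 0.0666, edgeR). Without the third IP naive library it passed, at a log2 of -1.76 and an adjusted p of 0.0422, and it passed by DESeq2 (adjusted p = 0.0344).

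Cryab, a small heat shock protein of myelinating Schwann cells, had the smallest adjusted p of the list. It was at 361, 298 and 373 CPM in input naive and at 47.0, 61.6 and 58.1 CPM in IP naive, so that replicates within each group lay close together. The log2 change was -2.63 ± 0.18 (adjusted p = 9.45e-08, edgeR) in naive and -2.64 ± 0.18 (adjusted p = 4.54e-08, edgeR) in injured ganglia. Ndrg1, whose loss causes an inherited demyelinating neuropathy in humans, kept 20.4% and 25.9% of its input level in IP, and Plekha4, a phosphoinositide-binding protein, 23.0% and 25.1%. Cryab, Ndrg1 and Plekha4 were lower in both conditions.

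S100b, Scn7a and Cd9 overlapped between IP and input in both conditions. S100b, the calcium-binding protein used as a Schwann cell stain, was at 2088, 2178 and 1851 CPM in input naive and at 1987, 2199 and 2124 CPM in IP naive. Its log2 IP/input was 0.04 ± 0.10 with a 95% interval from -0.17 to 0.26, and -0.01 ± 0.10 in injured ganglia (-0.22 to 0.21). The naive interval lay above those of all 20 genes that were lower in naive ganglia. Scn7a, an atypical sodium channel gene, had a log2 of -0.33 ± 0.22 and -0.16 ± 0.22. Cd9, a tetraspanin found on many cell types, had -0.48 ± 0.19 (adjusted p = 0.145, edgeR) and -0.45 ± 0.19 (adjusted p = 0.203, edgeR), and it passed in naive ganglia without the second IP naive library (log2 -0.75, adjusted p = 0.0082). Read as a check of the label, Cadm4, Cd9, S100b and Scn7a were the 4 genes of the 27 whose groups overlapped in naive ganglia.

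**Figure D2:**
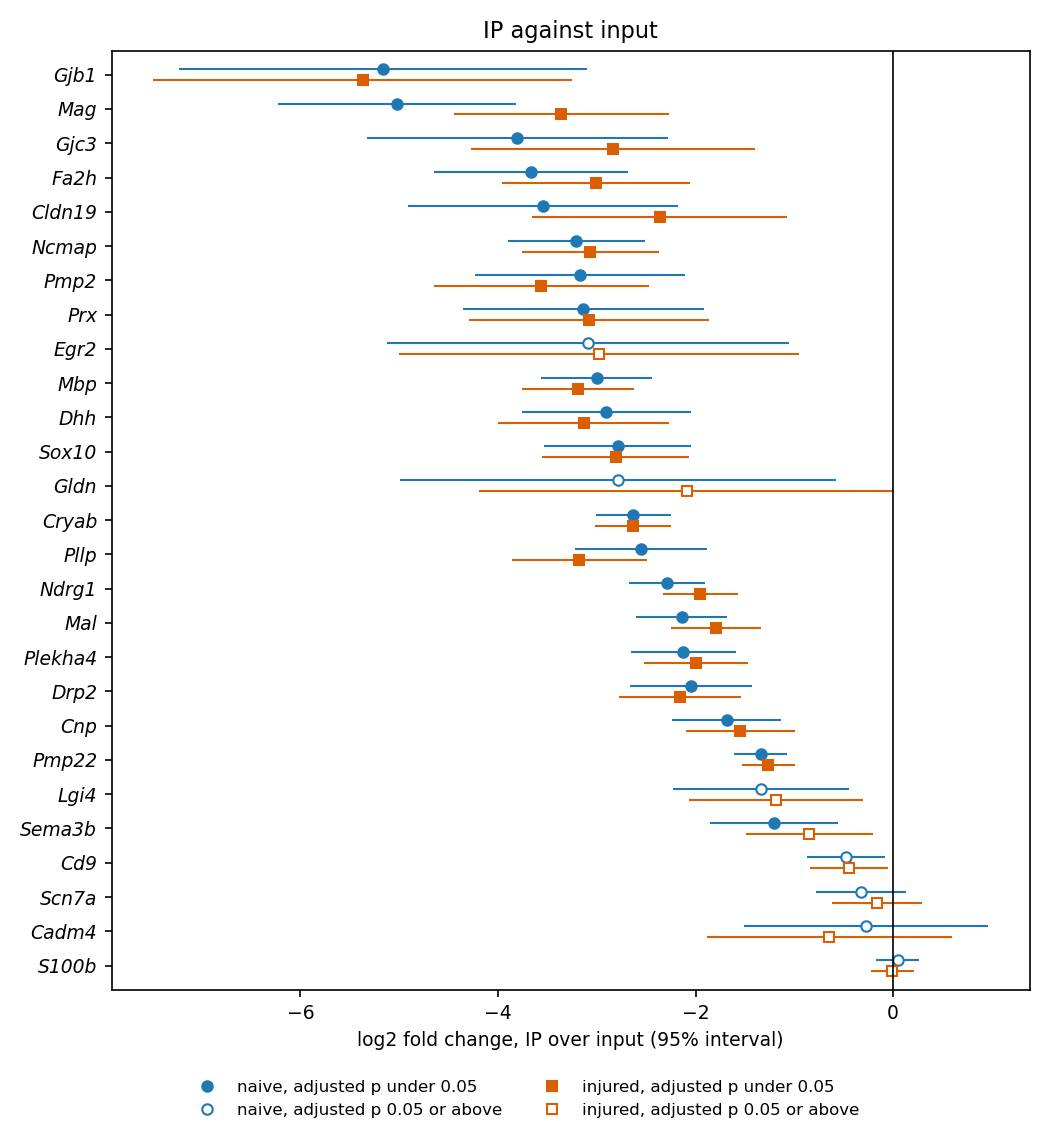
Log2 change of IP over input for the 27 genes, with 95% intervals from the edgeR fit, in naive (circles) and injured ganglia (squares). Filled symbols have an adjusted p under 0.05, which holds for 20 genes in naive ganglia and 19 in injured ones, and the intervals of S100b lie around 0.

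Measured beside them, marker genes of other cells were also lower in IP. In naive ganglia 10 of 12 tested satellite glia genes, 7 of 10 macrophage genes, 6 of 8 fibroblast genes and 6 of 11 endothelial and mural genes were lower, with median log2 changes of -2.75, -2.98, -3.28 and -1.88. Of 20 sensory neuron genes 7 were higher and none lower, with a median log2 of 0.39. Among all tested genes 4.96% were lower and 1.75% higher in naive ganglia. Between 16.3% and 21.1% of the input level of the Schwann cell and myelin genes was left in the 3 naive IP libraries, as the median over the 27 genes, and between 13.4% and 24.4% in the injured ones. The first IP library of each condition had the lowest of these medians, and there the medians of the satellite glia genes, 7.37% and 10.3%, and of the macrophage genes, 5.08% and 4.50%, were also the lowest of their group.

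**Figure D3:**
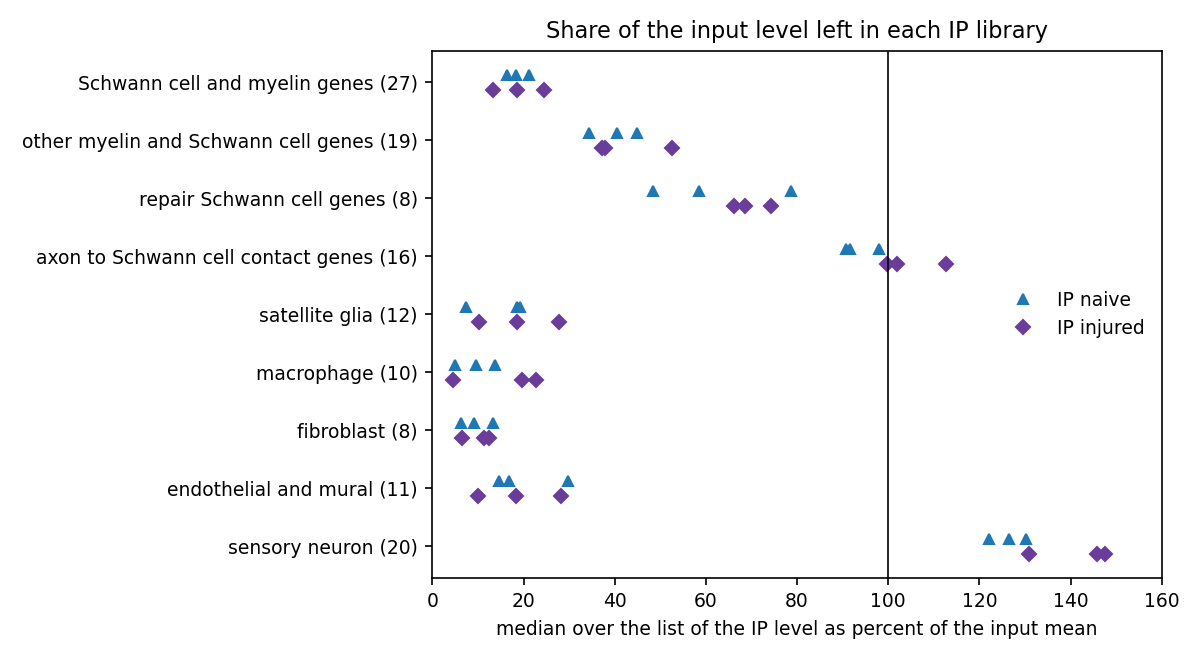
Share of the input level left in each IP library, as the median over the genes of a list of the CPM in that library in percent of the mean input CPM of the same condition. The number of tested genes is in brackets, the vertical line marks 100%, and the Schwann cell and myelin genes lie between 13.4% and 24.4%.

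Of 22 further genes listed for myelin and Schwann cells outside the 30, 19 were tested. In IP 10 were lower in naive and 6 in injured ganglia, against 4.96% and 4.06% of all tested genes, and none was higher. The median log2 changes were -1.06 and -1.24, and the highest single values 0.50 and 0.58. Among them, Cmtm5, a myelin-associated membrane protein gene, had a log2 of -3.07 ± 0.63 (adjusted p = 0.0044, edgeR) in naive ganglia, and Lpar1, a lysophosphatidic acid receptor gene, -1.69 ± 0.33 (adjusted p = 0.00253, edgeR). Pou3f1, a transcription factor that precedes EGR2, had -3.36 ± 0.60 in injured ganglia (adjusted p = 0.00135, edgeR). Of 18 genes by which axons and Schwann cells meet, many of them made by the neuron, 16 were tested. None of the 16 passed in naive ganglia by edgeR, and Jag1, a Notch ligand gene, was lower in injured IP (log2 -1.49 ± 0.41, adjusted p = 0.0367, edgeR).

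Whether the crush altered these genes was asked in both fractions. In input, none of the 27 genes passed in either direction by edgeR or DESeq2, and 2 had an unadjusted p under 0.05, against 0.285% of all tested genes that were lower and 0.881% that were higher after adjustment and 10.8% with an unadjusted p under 0.05. The median log2 change of the 27 was 0.09, and that of all genes 0.00. For 16 of the 27 genes the 95% interval lay within a log2 of -1 to 1, such as Mbp (0.10, from -0.42 to 0.62), Pmp22 (0.15, from -0.12 to 0.41), Sox10 (0.19, from -0.50 to 0.88) and Cnp (0.01, from -0.53 to 0.54). The intervals of Egr2 (-1.76 to 1.94) and Gjb1 (-2.26 to 1.12) were wide, and the reason was not tested.

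In 1 gene the input groups did not overlap with injured above naive, and in 1 with injured below, as in 7.61% and 7.26% of all tested genes. Lgi4 was the gene above, at 30.6, 26.6 and 41.1 CPM in injured against 17.4, 13.3 and 22.2 CPM in naive input, with a log2 of 0.90 ± 0.42 (adjusted p = 0.443, edgeR). Cd9 was the gene below, at 466, 604 and 534 CPM against 801, 691 and 682 CPM, with a log2 of -0.44 ± 0.19 (adjusted p = 0.385, edgeR).

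In IP, none of the 27 genes passed by edgeR or DESeq2, and 6 had an unadjusted p under 0.05 (Mag, Lgi4, S100b, Ndrg1, Cd9 and Gjc3), against 0.19% of all genes lower and 1.27% higher after adjustment and 10.3% with an unadjusted p under 0.05. The median log2 was 0.20 for the 27 and 0.01 for all genes. Groups did not overlap in 4 genes with injured above (Mag, Lgi4, Gjc3 and Pmp22) and in 1 with injured below (S100b), as in 10.4% and 8.36% of all genes. For 14 genes the 95% interval lay within a log2 of -1 to 1.

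Mag had the lowest p, with a log2 of 1.83 ± 0.54 from a mean of 0.867 to 3.09 CPM (adjusted p = 0.125, edgeR), and 75 of its counts in injured IP came from the third library against 21 and 22 in the others. Without that library the log2 of Mag was 1.16. Gjc3, at 0.772, 0.808 and 1.60 CPM in naive and 2.81, 2.12 and 3.97 CPM in injured IP, had a log2 of 1.47 ± 0.69 (adjusted p = 0.469, edgeR). Lgi4, at 15.4, 11.1 and 16.5 CPM in injured IP, had 1.05 ± 0.42 (adjusted p = 0.36, edgeR), next to 0.90 ± 0.42 in input. In Lgi4 injured libraries were thus above naive ones in both fractions, neither past the test. S100b was at 1625, 1875 and 1833 CPM in injured IP, below the naive values given above, with a log2 of -0.24 ± 0.10 (adjusted p = 0.402, edgeR) in IP and -0.19 ± 0.10 (adjusted p = 0.556, edgeR) in input. Gldn and Cldn19 passed as higher in injured IP without the second IP naive library, when Gldn was at 0 in both remaining naive libraries (adjusted p = 9.06e-05, edgeR) and Cldn19 had a log2 of 2.82 (adjusted p = 0.00435, edgeR). With all libraries their log2 changes were 1.55 ± 1.02 and 1.03 ± 0.62.

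**Figure D4:**
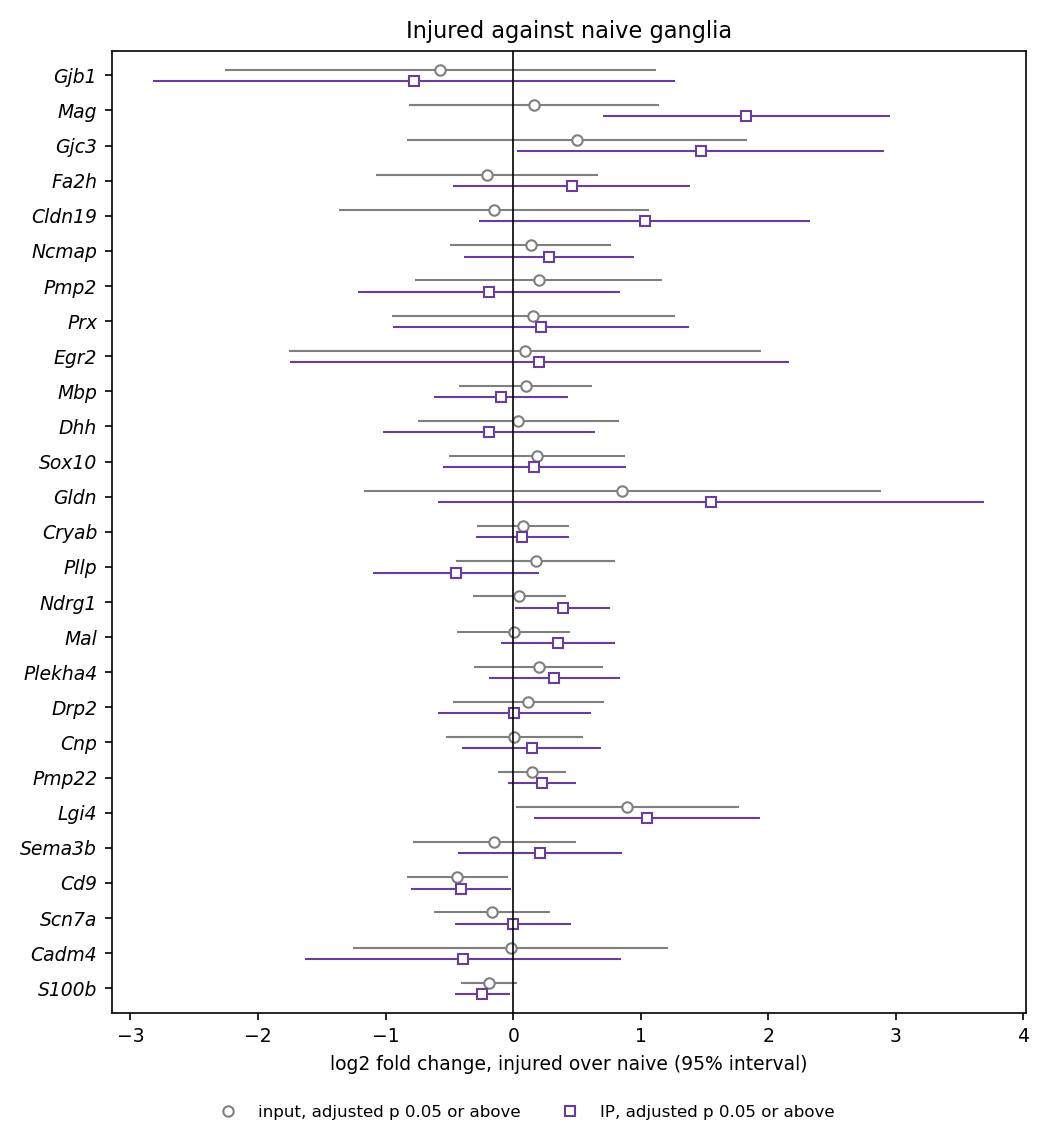
Log2 change of injured over naive ganglia for the 27 genes, with 95% intervals from the edgeR fit, in input (circles) and IP (squares). No gene has an adjusted p under 0.05, and the intervals are widest for Gldn, Egr2 and Gjb1.

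Whether injury acted differently on both fractions was tested as an interaction. It passed for none of the 27 genes by edgeR or DESeq2 and for 0.0% of all 11579 by edgeR, and 1 of the 27, Mag, had an unadjusted p under 0.05 (log2 1.66 ± 0.71, unadjusted p = 0.03, edgeR), as had 3.41% of all genes. Its interaction log2 was 0.996 without the third IP injured library. Without the second IP naive library the interaction of Gldn passed (adjusted p = 0.0419, edgeR), with both remaining naive IP libraries at 0. Mbp had an interaction of -0.19 ± 0.35 and Pmp22 of 0.08 ± 0.18 on the log2 scale.

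Macrophage genes had a median log2 of 0.98 for injury in input and 1.58 in IP, and of the 10 tested C1qc, a complement gene, passed, in IP (2.40 ± 0.52, adjusted p = 0.0176, edgeR). Their summed level ran from 279 to 403 CPM in input naive and from 453 to 626 CPM in input injured, and from 29.3 to 58.2 and from 19.6 to 126 CPM in IP naive and injured. No tested macrophage gene was at 0 in all 3 libraries of a group. The part of these cells in the values of the myelin genes was not tested. Of 22 genes of the repair state of Schwann cells, 8 were tested. Jun, the transcription factor that drives that state and is also induced in injured neurons, rose by 1.10 ± 0.15 on the log2 scale in input (adjusted p = 0.000112, edgeR) and by 1.34 ± 0.15 in IP (adjusted p = 7.92e-06, edgeR), and none of the other 7 passed after injury in either fraction. Notch1 was lower in IP than in input in both conditions (log2 -2.79 ± 0.43 in naive ganglia, adjusted p = 0.000303, edgeR), and Ncam1 in naive ganglia (-0.56 ± 0.16, adjusted p = 0.0333, edgeR). None of the 12 tested satellite glia genes passed in input, and Glul, for glutamine synthetase, rose in IP (0.90 ± 0.12, adjusted p = 5.99e-05, edgeR). Cntnap2, an axonal partner at the juxtaparanode, fell in IP (log2 -0.73 ± 0.18, adjusted p = 0.0441, edgeR). The fibroblast and the endothelial and mural genes had no call after injury in either fraction.

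The 3′ ends behind these values were examined gene by gene. Cnp, Dhh, Gjc3, S100b and Sema3b had no kept site within 100 bp of the annotated 3′ end. Dhh was read through a single kept site 11441 bp upstream of that end and Cnp through sites 10177 and 10960 bp upstream, so their values are those of sites inside the annotated gene. Mbp (chromosome 18, 82475091 to 82585637, plus strand) was read through 1 site, 43 bp upstream of its annotated 3′ end, which held 104084 counts. That site made up 100% of the kept counts of Mbp in every library, the exact (Clopper-Pearson) 95% interval reaching down to 99.7% in the library with the fewest Mbp counts, the first IP injured one with 1404. With the 3 further sites in repeats, which held 68 counts in all, the share was between 99.7% and 100% in every library. No exact permutation test of 3 libraries against 3 can go below p = 0.1, and in the 4 comparisons p was 1.0 or 0.1. Intervals on shares cover counting error only.

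Among the other genes, 12 had more than 1 site in the test of site use within genes (edgeR's diffSpliceDGE, looked at for genes other than Mbp after the data had been seen). None of the 12 passed in the 4 comparisons, against 0.205% of 5366 genes for IP over input in naive ganglia, 0.0186% in injured ganglia, and 0.0% for injury in input and in IP. Pllp had the lowest p of them, and its sites lie 18 and 572 bp upstream of the annotated 3′ end. The site at 18 bp took 0.841% ± 0.888 of its counts in IP naive, 15.2% ± 16.3 in IP injured, 16.5% ± 10.9 in input naive and 14.2% ± 4.01 in input injured (SD, n = 3 each). The naive IP libraries were lowest, but the gene's adjusted p from edgeR was 0.138 for IP over input in naive ganglia and 0.665 for injury in IP. Cldn19 was read at 36 and 2613 bp upstream of its end, with the site at 36 bp at 44.6% ± 8.6 in input naive and 46.4% ± 11.6 in input injured, and at 14.3% ± 24.8 and 50.2% ± 34.1 in IP naive and injured. Its IP shares rest on few counts and vary widely between libraries.

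Mal, a gene with 5 listed sites, had its most used one 20 bp from the annotated end, at 43.8% ± 4.69 of the counts in input naive, 48.1% ± 0.875 in input injured, 57.1% ± 9.52 in IP naive and 49.3% ± 4.88 in IP injured. Scn7a had 7 listed sites, and the site 28 bp from the end held 42.8% ± 1.92, 42.5% ± 5.89, 49.3% ± 1.12 and 44.4% ± 2.3 in the same order of groups. Neither passed the test of site use. Pmp22, S100b, Cd9, Cryab and Mag were each read through a single kept site, so no choice of 3′ end could be measured in them.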

How the data were processed

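Each library is RNA of L4-L6 ganglia pooled from 4 mice, made into a QuantSeq 3′ REV library per the labels' protocols. The deposited table holds raw counts per genomic interval and library, without normalization by the authors. Tools listed per the submitters' processing notes are HTSeq, STAR and bcl2fastq 2.17, with the builds mm10 and GRCm38. The calling of intervals and the handling of multi-mapped reads are not given in the sources used here. Of 178451 lines 20 were damaged and left out, and 17 columns without a name were not used.

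Intervals (sites) came in a minus and a plus strand block. They were tied to a gene on its strand, up to 200 bp past the 3′ end, in the RefSeq table of GRCm38.p6. The gene's strand came from RefSeq's promoter table where it lists the gene and otherwise from the counts. The latter held for 9 of the 30 genes (Mbp, Fa2h, Drp2, Pmp2, Lgi4, Cryab, Sox10, Ndrg1 and Sema3b). Where both sources were available, the strand from a site within 100 bp of an end was the same for 99.9% of 7899 genes. The strand from the share of counts was the same for 82.5% of 1621. Of the 9 genes, Sema3b had no kept site within 100 bp of its 3′ end. Sites in repeats, also those labelled only in part as a repeat, were left out unless at the annotated 3′ end. Counts were summed per gene, and these sums held 73.7% of all counts. Sites that fell in several genes of the same strand were tied to none of them, and genes on opposite strands were told apart by strand alone.

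Gene sums were tested with edgeR 4.0.16 (filterByExpr, TMM, quasi-likelihood) over all 12 libraries in 5 comparisons, with SE from log2 change over the square root of F and Benjamini-Hochberg adjustment over all 11579 tested genes. The fit was also run on simulated counts of independent libraries without shared pools, so that run cannot test the treatment of libraries as independent. The gene list and the other lists were chosen with earlier results of these data known. All members were described by role, and of the other lists up to 4 genes per comparison past the threshold with the smallest adjusted p could be named. Alternatives were DESeq2 1.42.0, other scaling, filters and site rules, leaving out each library, the replicate number as a block, and fits of the 2 groups compared. Libraries of a group are separate pools per the labels, so p-values measure the spread between pools. Naive and injured ganglia came from opposite sides of the operated mice, and input is the homogenate before precipitation, so groups can share mice. The labels do not say which libraries of different groups share a pool. All 12 were therefore treated as independent in the main fit, without such matching. Precision rests on 3 libraries a group at the depths given in the report. Promoters are RefSeq's, for GRCm38.p6.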

Additional observations from a re-analysis of the deposited data

Results flagged for a closer look

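A single result was flagged among data that the comparisons leave out. A site in a simple repeat and B2 element within Prx, 10355 bp upstream of the annotated 3′ end and kept out of the gene sum, had a mean level 2.48 times as high in injured as in naive input. The values were 7.91, 5.65 and 8.78 CPM in input injured and 4.54, 2.25 and 2.23 CPM in input naive, and the groups did not overlap. Among gene sums, injured input lay above naive input without overlap in 7.61% of tested genes. The site held 382 counts over the 12 libraries. In IP the site was at 2.81, 1.06 and 0.992 CPM in injured and 3.17, 0.808 and 0.436 CPM in naive libraries, which overlapped. The site's difference was not tested across all sites, and the kept site of Prx had a log2 change of 0.16 ± 0.53 in input (adjusted p = 0.975, edgeR).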

How the results depend on the processing

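No member that passed reversed its direction under any of the 21 alternatives. Of the 20 lower in naive IP, 19 kept the call in every alternative that could be run for them, and of the 19 in injured IP, 16 did (Cnp, Dhh, Gjc3 and Sema3b have no kept site at the 3′ end and thus 20 alternatives), the exceptions being Sema3b in naive and Cldn19, Gjc3 and Pllp in injured ganglia. Leaving out each library gave 19 to 21 lower in naive and 17 to 20 in injured ganglia, with medians of -2.68 to -2.37 and -2.53 to -2.25, and 0 higher in each. Of the 11892 to 11942 genes then tested, it gave 406 to 586 lower in naive and 279 to 542 in injured ganglia. For injury it gave 0 to 0 in input in each direction (medians -0.01 to 0.17), 0 lower and 0 to 2 higher in IP (medians 0.08 to 0.30), and 0 lower and 0 to 1 higher in the interaction (medians -0.05 to 0.20), the maxima without the second IP naive library. Without that library 170 of 11928 tested genes were higher for injury in IP and 2 in the interaction. Sites at the 3′ end alone, which left 22 members, gave 16 and 14 lower and moved the naive median to -2.92 and the naive log2 of Pllp to -6.74. With that setting 353 and 307 of 9710 tested genes were lower. Egr2 passed in naive and injured ganglia with no filter on low counts (adjusted p = 0.026 and 0.0356), and with only the libraries compared Egr2, Gldn and Lgi4 passed in injured ganglia (0.0316, 0.0157 and 0.0431). The cause was not tested. With counts tied to genes as denominator the summed level was 0.434% in IP naive, 0.404% in IP injured, 0.956% in input naive and 0.936% in input injured. Without S100b and with all counts as denominator it was 0.173%, 0.18%, 0.526% and 0.512% in the same order. With all sites the Mbp site share was -0.0833 percentage points different between injured and naive input. The diffSpliceDGE alternative was not run for Mbp, which has 1 kept site. Same-numbered libraries of different groups had correlations of their deviations from -0.023 to 0.097, and libraries with other numbers from -0.096 to 0.022. Such values do not settle whether libraries of a number share a pool, and the main fit did not pair them. With the replicate block 23 members were lower in naive (Cd9, Gldn and Lgi4 added) and 20 in injured ganglia (Sema3b added), and 0 passed for injury. Of 11579 tested genes, 666 were lower with the block in naive and 565 in injured ganglia, against 574 and 470 in the main fit. For injury, 71 of all genes were lower and 133 higher in input with the block, and 48 and 182 in IP. Gjb1 had 0 to 13 and Mag 8 to 75 counts in an IP library, and Gldn 0, 101 and 0 in IP naive; the part of depth in their spread was not tested.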
